A study of Mus musculus with 4 samples.

Results

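Cxcr3 and Cxcr6 are chemokine receptors of activated lymphocytes, and the genes described here are those receptors with their ligands: Cxcl9, Cxcl10 and Cxcl11 for Cxcr3, and Cxcl16 for Cxcr6. The 6 genes were chosen by name, and 5 of them had a row among the 32285 genes of the single-cell matrices. Cxcl11 was not analysed here. In mm10, Cxcl9 (ENSMUSG00000029417) lies on chromosome 5 at 92321347 to 92328079 and Cxcl10 (ENSMUSG00000034855) on the same strand at 92346638 to 92348889. Cxcl16 (ENSMUSG00000018920) lies on chromosome 11 at 70453983 to 70459984, Cxcr3 (ENSMUSG00000050232) on chromosome X at 101731535 to 101734269 and Cxcr6 (ENSMUSG00000048521) on chromosome 9 at 123806475 to 123811760. All but Cxcr6 are on the minus strand.

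The data came from tumors of wild-type (WT) mice and of mice without Lrrc25 (Lrrc25-/-), a leucine-rich repeat membrane protein of myeloid cells. Each genotype carried 1 of 2 untreated tumors: the B16F10 melanoma line, collected at day 14, or the MC38 colon carcinoma line, collected at day 26. Each of the 4 libraries was 1 pool of tumor pieces from 3 mice, in which bead-isolated CD45+ cells had been mixed 5 to 1 with the whole suspension. The labels give neither the strain, sex or age of the mice nor how the deletion was made. The study set the genotypes against each other, and the question here is which cells hold each ligand and each receptor, and how the levels differ with tumor and genotype.

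CXCL9, CXCL10 and CXCL11 are secreted proteins that interferon gamma induces in macrophages, dendritic cells (DC), stromal cells and tumor cells, and they attract T and natural killer (NK) cells that carry CXCR3. CXCL16 is made as a membrane-bound protein that metalloproteases such as ADAM10 release, and CXCR6 marks activated and tissue-resident T cells. The XCR1+ cDC1 subset and CCR7+ migratory DC are known sources of CXCL9 and CXCL16 in tumors.

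The promoters of the neighbouring genes Cxcl9 and Cxcl10 are shown because the RNA levels of these genes went in opposite directions between the tumor models in macrophages. The windows run from 250 bases before to 50 bases after the RefSeq start site in GRCm38.p6, at chr5:92328030-92328329 and chr5:92348840-92349139, read 5′ to 3′ on the minus strand. Capitals mark matches, on either strand, to an interferon-stimulated response element (ISRE: GAAA, 2 bases of any kind, GAAA) or an NF-kB motif (GGGA, 4 bases of any kind, CC).
Cxcl9: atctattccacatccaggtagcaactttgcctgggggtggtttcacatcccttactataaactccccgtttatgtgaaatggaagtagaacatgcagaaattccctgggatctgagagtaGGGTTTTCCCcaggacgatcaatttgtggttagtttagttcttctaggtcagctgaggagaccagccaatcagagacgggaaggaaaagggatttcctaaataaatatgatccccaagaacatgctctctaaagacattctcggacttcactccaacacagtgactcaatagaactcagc
Cxcl10: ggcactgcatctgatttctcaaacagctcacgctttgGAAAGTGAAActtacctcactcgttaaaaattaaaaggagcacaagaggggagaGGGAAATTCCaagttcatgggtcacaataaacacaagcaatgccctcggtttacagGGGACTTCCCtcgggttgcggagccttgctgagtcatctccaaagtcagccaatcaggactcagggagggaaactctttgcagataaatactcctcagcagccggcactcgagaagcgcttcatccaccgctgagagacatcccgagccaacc
Cxcl10 held 1 ISRE match, 213 bases before the start, and NF-kB matches 159 and 103 bases before it. Cxcl9 held 1 NF-kB match, 130 bases before the start and on the reverse strand. Of 32851 RefSeq promoter windows of this length, 3.44% held the ISRE letters, 20.7% the NF-kB letters and 8.30% the STAT motif TTCNNNGAA. That last motif was in neither window shown, and the Cxcr3 and Cxcr6 windows held none of the 3. These matches describe letters, not binding.

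The libraries held 10490 to 18545 barcodes and 105338548 to 138841749 UMIs (unique molecular identifiers, the counted RNA molecules), and pairs of libraries shared 96 to 247 barcodes. After quality filters, 9799 to 17286 cells were kept, of which 73.3% to 79.2% passed the marker gate of exactly 1 class, and no gate used a member gene. Levels are given as CPM, the UMIs of a gene over all UMIs of a class in a library, scaled to a common total. Values are given in the order WT B16F10, Lrrc25-/- B16F10, WT MC38 and Lrrc25-/- MC38. Lrrc25 itself stood at 163, 4.90, 93.8 and 2.14 CPM in macrophages. The macrophage gene C1qa, at 2432 to 3079 CPM in macrophages, was at 42.0 to 79.9 CPM in cells gated as CD8 T cells. Some free or co-captured macrophage RNA was thus present, with C1qa at 1.73% to 2.59% of its macrophage level. Cells that also passed the macrophage gate had been left out, so these shares can understate that RNA. For the ligands, which no gate used, CD8 T cells stood at higher shares of the macrophage level. These were 5.45% to 19.5% for Cxcl9, 8.01% to 18.9% for Cxcl10 and 7.94% to 10.998% for Cxcl16. What part of the ligand shares was macrophage RNA was not tested. Fewer positive cells and less RNA per cell cannot be told apart in a summed level.

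Cxcl9 was found in mononuclear phagocytes and in stromal cells, with its highest class means in endothelial cells and cDC1 in B16F10 and in fibroblasts and macrophages in MC38. In macrophages (3484, 3979, 8927 and 8756 cells) it stood at 146, 165, 1050.4 and 1395 CPM, with a Cxcl9 UMI in 12.3%, 14.2%, 47.3% and 64.1% of cells. Both MC38 libraries were far above both B16F10 libraries. With each cell thinned to 1000 UMIs the shares were 5.56%, 6.72%, 31.4% and 43.5%, in the same order. Monocytes, the C1q-low circulating precursors, followed macrophages closely at 140.4, 156, 804 and 1087 CPM. In cDC1, at 20 to 41 cells a library, Cxcl9 stood at 183, 523, 778 and 636 CPM, and the single highest cell held 20.5% to 42.5% of those UMIs. cDC2, the DC subset that primes CD4 T cells, had 103, 54.4, 125 and 802 CPM, of which 1 cell held 14.4% to 60.0%. Migratory DC, which carry antigen to lymph nodes, had 96.7, 123, 147 and 445 CPM.

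Fibroblasts (80, 77, 45 and 51 cells) had 52.9, 99.7, 1887 and 1757 CPM of Cxcl9, and 1 cell held 29.7% to 40.8% of the UMIs. Their C1qa level was 43.1 to 90.4 CPM and that of the collagen gene Col1a1 was 6981 to 8869.6 CPM. Endothelial cells (26 to 46) had 195, 659, 970.5 and 599 CPM. Tumor cells held little Cxcl9, with 3.40 and 3.57 CPM in melanoma cells and 26.6 and 46.7 CPM in MC38 cells. In order of the mean over genotypes, the MC38 libraries ran from fibroblasts (1822 CPM) to macrophages (1223 CPM), with no overlap of their values. Macrophages, monocytes, endothelial cells and cDC1 overlapped neighbour by neighbour. In B16F10, endothelial cells and cDC1 overlapped at the top (427 and 353 CPM), above macrophages (155 CPM). Pericytes were too few to rank: in MC38 each library had 2, and 1 cell of each pair held 99.7% or 99.2% of their 342 or 120 Cxcl9 UMIs.

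Class contrasts within libraries were tested with edgeR on class sums, with library as a block and Benjamini-Hochberg adjustment over all genes. Cxcl9 in cDC1 did not differ detectably from macrophages (log2 difference -0.07 ± 0.21 SE, adjusted p = 0.853, 4 libraries), in a contrast where 21.9% of 13540 genes passed. Its sign turned with several settings, and without the Lrrc25-/- B16F10 library cDC1 were lower by the test (-0.66, adjusted p = 0.0126). cDC2 were lower by 1.51 ± 0.20 (adjusted p = 4.6e-12), against 24.4% of genes called in that contrast. Neutrophils were lower (-3.45 ± 0.35, adjusted p = 3.58e-21, 31.4% of genes called), and so were tumor cells (-5.53 ± 0.16, adjusted p = 8.55e-05, 48.0% of genes called). Monocytes (-0.25 ± 0.16, adjusted p = 0.280, 29.0% of genes called) and fibroblasts (-0.71 ± 0.34, adjusted p = 0.114, 32.8% of genes called) did not pass. The fibroblast value averages libraries of both models, which went in opposite directions, and it passed without the Lrrc25-/- MC38 library (-0.97, adjusted p = 9.51e-05) and with Scrublet removal (-0.87, adjusted p = 0.00043).

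Cxcl10 was spread over more classes. Macrophages had 848, 919, 233 and 243 CPM, with a UMI in 59.4%, 59.7%, 28.4% and 31.0% of cells, so here both B16F10 libraries were above both MC38 libraries. Thinned to 1000 UMIs a cell, the shares were 30.3%, 32.3%, 13.5% and 13.6%. Tumor cells had 252 and 257 CPM in B16F10 and 316 and 479.6 CPM in MC38, with a UMI in 61.9%, 53.2%, 44.4% and 55.5% of cells. Monocytes had 629, 417, 248 and 236 CPM, and neutrophils 268, 153, 185 and 542 CPM. T cells of the same libraries also held Cxcl10. Conventional CD4 T cells stood at 309, 149, 20.7 and 70.9 CPM and CD8 T cells at 161, 73.6, 31.2 and 41.3 CPM. In B16F10 the neutrophil and melanoma levels were thus near those of T cells. The part of free RNA in any of these levels was not tested. cDC1, which did not differ detectably from macrophages for Cxcl9 over the 4 libraries, had only 64.4, 88.4, 45.4 and 37.2 CPM of Cxcl10. In B16F10 macrophages led the order of means (884 CPM), apart from monocytes (523 CPM). In MC38, endothelial cells, tumor cells, fibroblasts, neutrophils, monocytes and macrophages ran from 413 to 238 CPM, each overlapping its neighbour.

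Against macrophages, Cxcl10 was lower in cDC1 (-3.26 ± 0.24, adjusted p = 3.06e-38), in cDC2 (-1.03 ± 0.20, adjusted p = 4.41e-06), in migratory DC (-2.87 ± 0.71, adjusted p = 0.000771, 2 libraries), in neutrophils (-1.04 ± 0.33, adjusted p = 0.00713) and in fibroblasts (-1.77 ± 0.52, adjusted p = 0.0108, 3 libraries). Of genes tested between migratory DC and macrophages, 16.1% were called. The neutrophil call was lost without the WT B16F10 (-0.59, adjusted p = 0.232) or Lrrc25-/- B16F10 library (-0.40, adjusted p = 0.542). The fibroblast call was lost without either of those as well (-1.28, adjusted p = 0.161, and -0.89, adjusted p = 0.314). The cDC2 call was lost without the Lrrc25-/- B16F10 library (-0.49, adjusted p = 0.114), and it and the neutrophil call were also lost with DESeq2 (adjusted p = 0.164 and 0.297). Tumor cells did not differ detectably from macrophages (-0.79 ± 0.56, adjusted p = 0.293), nor did monocytes (-0.40 ± 0.17, adjusted p = 0.0938).

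Cxcl16 had its highest mean in migratory DC in both models. They had 659, 703, 527 and 641 CPM (36, 113, 57 and 47 cells), with a UMI in 77.8%, 87.6%, 82.5% and 93.6% of cells, and no single cell held more than 8.26% of the UMIs. Macrophages had 337, 367, 436 and 595 CPM, with a UMI in 78.4%, 77.2%, 74.7% and 81.3% of cells. The migratory DC values lay above all macrophage values in B16F10 and overlapped them in MC38. cDC2 had 290.3, 375, 379 and 399 CPM, cDC1 193, 219.9, 239.9 and 419 CPM, and monocytes 133, 166, 319 and 482 CPM. Melanoma cells (6.33 and 7.85 CPM) and MC38 cells (22.3 and 32.8 CPM) held little of this ligand.

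Cxcl16 was higher in migratory DC than in cDC1 (1.30 ± 0.20, adjusted p = 4.83e-05, 42.9% of 4604 genes called). In the same contrast Cxcl9 was lower (-1.48 ± 0.27, adjusted p = 0.000267) and Cxcl10 higher (1.22 ± 0.32, adjusted p = 0.00483). The difference of Cxcl16 between migratory DC and macrophages, over 2 libraries, did not pass (0.49 ± 0.68, adjusted p = 0.719), nor did that of Cxcl9 (-1.72 ± 0.69, adjusted p = 0.0719), which passed over all 4 libraries at a minimum of 20 cells (-1.57, adjusted p = 7.46e-07). When cells were named by their highest marker score, the migratory DC and cDC1 calls for Cxcl16 and Cxcl10 and the cDC2 calls for Cxcl9 and Cxcl10 were lost and their signs turned. Cxcl16 was lower than in macrophages in cDC1 (-0.86 ± 0.20, adjusted p = 0.000148), monocytes (-0.81 ± 0.17, adjusted p = 0.0022), neutrophils (-2.80 ± 0.33, adjusted p = 5.35e-16), fibroblasts (-2.40 ± 0.32, adjusted p = 2.28e-06) and tumor cells (-5.18 ± 0.33, adjusted p = 0.000455). In cDC2 the difference did not pass (-0.31 ± 0.18, adjusted p = 0.220).

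**Figure D1:**
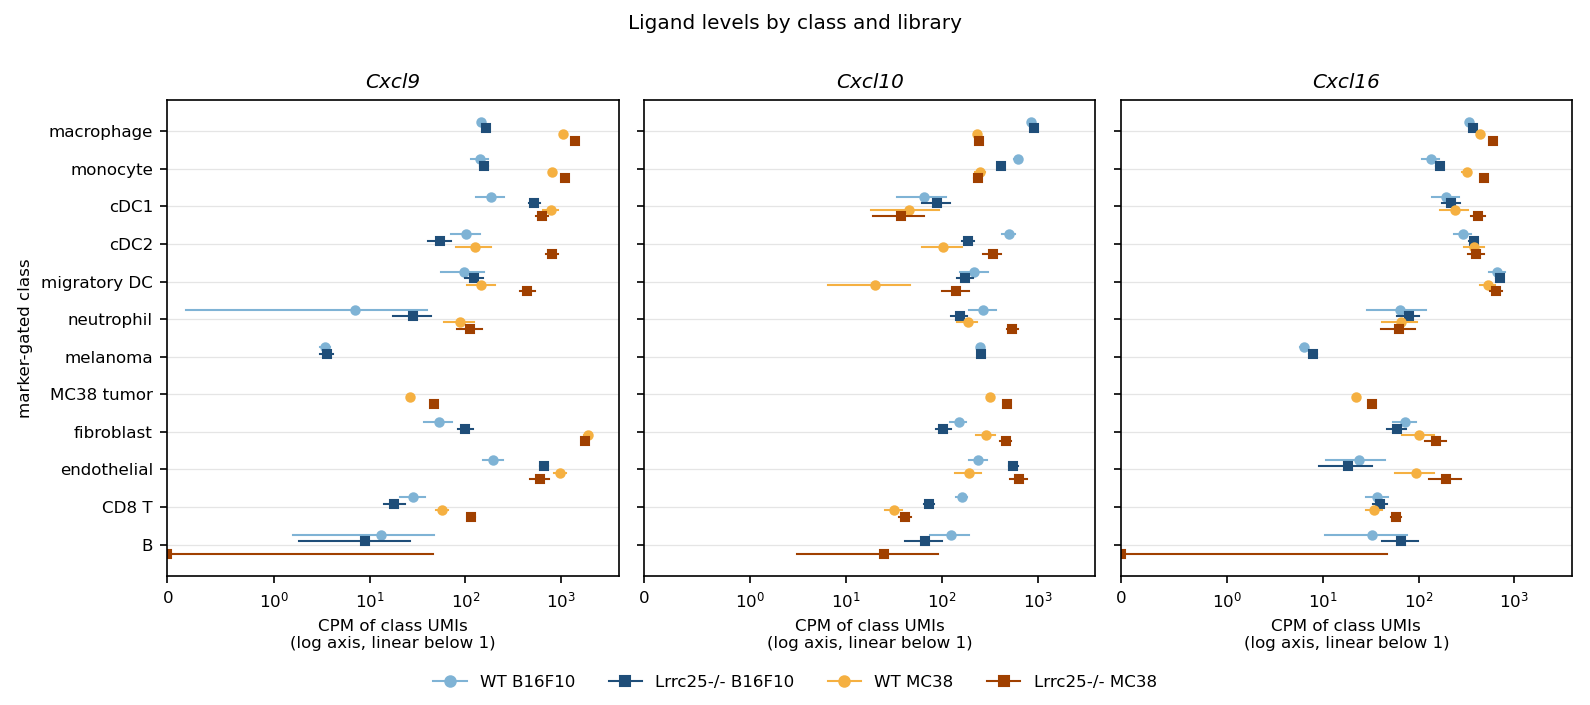
CPM of Cxcl9, Cxcl10 and Cxcl16 (x axis, log scale, linear below 1) in marker-gated classes (y axis) of each library, with exact Poisson 95% intervals that cover counting error only. Classes with under 10 cells are left out. Macrophage Cxcl9 lies at 146 and 165 CPM in B16F10 and 1050.4 and 1395 CPM in MC38, while macrophage Cxcl10 lies at 848 and 919 CPM against 233 and 243 CPM.

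As shares of all gated UMIs, which depend on how cells were mixed and gated, macrophages held 87.0%, 80.1%, 93.0% and 91.1% of Cxcl9 and 90.3%, 86.5%, 91.7% and 90.0% of Cxcl16. Cxcl10 was shared between macrophages (54.3%, 69.6%, 44.0% and 40.7%) and tumor cells (42.2%, 24.9%, 52.9% and 53.5%). The DC classes had few cells and held a small part of each total.

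**Figure D2:**
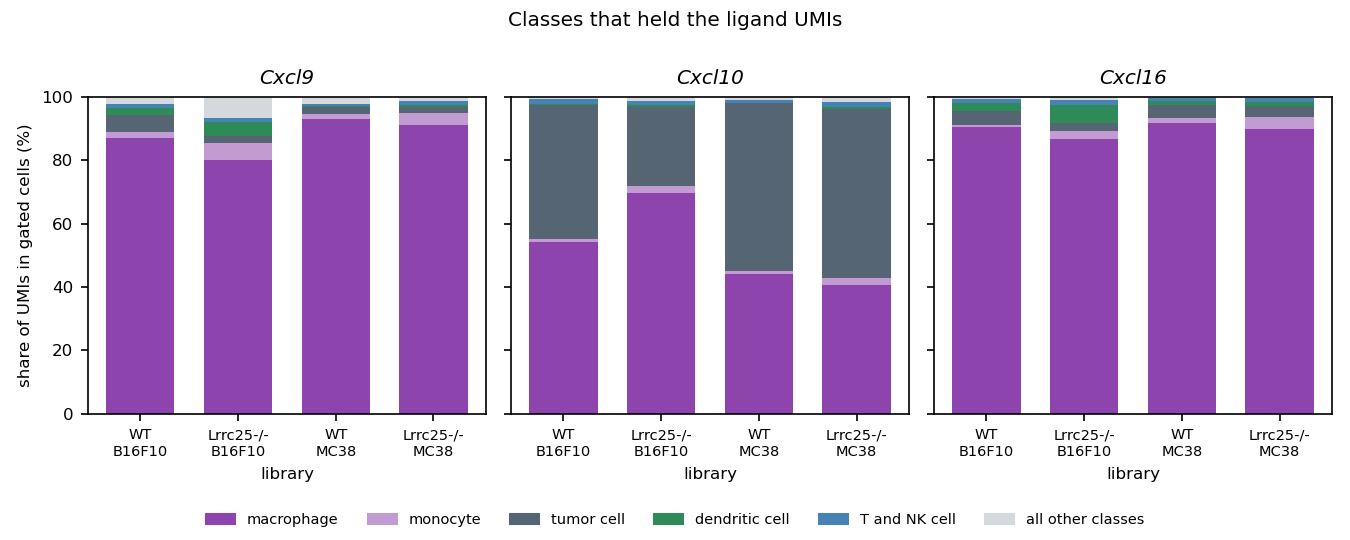
Share of each ligand's UMIs in gated cells (y axis, percent) held by each group of classes, 1 bar per library. Macrophages hold over 80% of Cxcl9 and Cxcl16 in every library, and Cxcl10 is divided between macrophages and tumor cells.

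Single macrophages often held more than 1 ligand. Cxcl9 and Cxcl10 were detected together in 8.44%, 9.22%, 16.9% and 21.7% of macrophages. In every library Cxcl10 was higher in macrophages with a Cxcl9 UMI (1068, 1171, 329.9 and 269 CPM) than in those without (813, 873, 134 and 185 CPM). Macrophages with a Cxcl9 UMI were also deeper, with median UMIs of 9410.5, 10354, 4875.5 and 6538 against 8187, 8806.5, 4234 and 4900, and the part of depth in this difference was not tested.

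Arg1, the arginase of immunosuppressive macrophages, was detected in 20.3%, 37.4%, 80.6% and 71.2% of macrophages. Cxcl9 stood at 169.6, 79.6, 904 and 1274 CPM in Arg1+ macrophages and at 139, 224, 1846 and 1811 CPM in Arg1-negative ones. It was lower in Arg1+ cells in 3 of 4 libraries and higher in the WT B16F10 library. None of the ligands passed in this contrast, in which 7.47% of genes were called: Cxcl9 -0.55 ± 0.23 (adjusted p = 0.195), Cxcl10 -0.28 ± 0.09 (adjusted p = 0.115) and Cxcl16 -0.17 ± 0.06 (adjusted p = 0.162). Without the WT B16F10 library Cxcl9 was lower in Arg1+ cells by the test (-0.90, adjusted p = 0.0262), as it was with no filter on low counts (-0.50, adjusted p = 1.06e-05). Without the Lrrc25-/- MC38 library Cxcl10 was lower by the test (-0.39, adjusted p = 0.0314). With class totals in place of TMM scaling, Cxcl10 (-0.42, adjusted p = 0.0207) and Cxcl16 (-0.31, adjusted p = 0.0155) passed as lower, and over all genes the split moved from 735 higher and 334 lower to 466 higher and 1278 lower.

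Among receptors, Cxcr3 was carried by T cells, and was also found in NK cells, B cells and plasmacytoid DC. CD8 T cells (204, 618, 610 and 906 cells) had 58.2, 84.4, 5.21 and 10.2 CPM of Cxcr3, from 88, 298, 17 and 49 UMIs. The intervals were 46.7 to 71.7, 75.1 to 94.6, 3.03 to 8.34 and 7.56 to 13.5 CPM, and the B16F10 and MC38 libraries did not overlap. A Cxcr3 UMI was found in 30.4%, 29.8%, 2.62% and 4.75% of CD8 T cells, at median depths of 4804.5, 3084.5, 4652.5 and 4452 UMIs a cell. Thinned to 1000 UMIs, these shares were 7.50%, 11.6%, 0.659% and 1.34%. Macrophages, which should lack the receptor, had 3.51, 3.72, 0.446 and 0.830 CPM, with a UMI in 3.01%, 3.22%, 0.190% and 0.480% of cells at median depths of 8290, 9016, 4563 and 6032.5. The CD8 T level was above this background in each library. Of gated Cxcr3 UMIs, CD8 T cells held 11.5%, 26.2%, 18.5% and 22.6%, macrophages 14.3%, 12.8%, 20.7% and 19.8%, and melanoma cells 51.3% and 21.2% in the B16F10 libraries.

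Conventional CD4 T cells, which are CD4+ and Foxp3-negative (48, 96, 49 and 94 cells), had 46.7, 152, 36.1 and 70.9 CPM of Cxcr3. Regulatory T cells (Treg, Foxp3+; 50, 85, 43 and 118 cells) had 69.2, 122, 57.0 and 47.0 CPM. T cells with none of the subset markers, or with markers of more than 1 subset, had 64.1, 122, 44.0 and 36.1 CPM and are called other T cells. In B16F10 the means of conventional CD4 T, Treg, other T and CD8 T cells ran from 99.3 to 71.3 CPM, each overlapping the next. In MC38 the first 3 stood at 53.5, 52.0 and 40.0 CPM, and CD8 T cells stood apart at 7.71 CPM, overlapping NK cells (3.75 CPM). NK cells had 13.4, 18.9, 1.18 and 6.31 CPM. Plasmacytoid DC, the type I interferon-producing DC, had 35.8 and 69.4 CPM in B16F10 (72 and 95 cells), and too few were gated in MC38 (4 and 11). Melanoma cells had 4.82 and 4.80 CPM, with a UMI in 11.2% and 9.80% of cells at median depths of 26419.5 and 23352, and in 0.524% and 0.551% when thinned. MC38 cells had 0.0265 and 0.174 CPM.

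Cxcr3 was higher in CD8 T than in NK cells (1.78 ± 0.32, adjusted p = 0.000891, 4 libraries, 11.7% of 9375 genes called), a call lost by highest marker score (0.52, adjusted p = 0.212). It was lower in CD8 T than in conventional CD4 T cells over the 2 Lrrc25-/- libraries with 50 cells of both (-1.42 ± 0.26, adjusted p = 2.96e-06, 6.91% of genes called). That call was lost over all 4 libraries at a minimum of 30 cells (-1.09, adjusted p = 0.145) and under a stricter gate (-1.39, adjusted p = 0.0778). Against Treg the difference did not pass (-0.72 ± 0.29, adjusted p = 0.184, 3 libraries, 8.19% of genes called), nor did it between Treg and conventional CD4 T cells (-0.45 ± 0.28, adjusted p = 0.411, 7.82% of genes called).

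Cxcr6 was carried by CD8 T, conventional CD4 T, gamma-delta T and other T cells. CD8 T cells had 161, 348, 137 and 171 CPM, with intervals of 142 to 183, 329 to 368, 125 to 151 and 160.0 to 183, and the Lrrc25-/- B16F10 library was above the other 3. A UMI was found in 46.1%, 59.7%, 42.8% and 48.0% of CD8 T cells, and in 18.5%, 28.2%, 14.8% and 17.8% when thinned. Conventional CD4 T cells had 175, 293, 191 and 134 CPM, other T cells 118, 239.9, 115 and 99.0 CPM, and Treg 57.0, 71.4, 30.7 and 67.9 CPM. Gamma-delta T cells, an unconventional T cell lineage (17, 43, 12 and 63 cells), had 378, 816, 87.0 and 299 CPM. NK cells had 13.4, 39.9, 8.29 and 4.51 CPM, and macrophages stood at a background of 1.26, 1.45, 0.892 and 1.31 CPM. Of gated Cxcr6 UMIs, CD8 T cells held 39.5%, 58.8%, 69.1% and 67.6%.

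By the same tests, Cxcr6 was higher in CD8 T than in NK cells (3.87 ± 0.25, adjusted p = 6.41e-09) and than in Treg (1.88 ± 0.20, adjusted p = 0.000274). It was lower in Treg than in conventional CD4 T cells (-1.61 ± 0.26, adjusted p = 9.61e-08, 2 libraries). CD8 T and conventional CD4 T cells did not differ detectably (0.42 ± 0.21, adjusted p = 0.282).

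**Figure D3:**
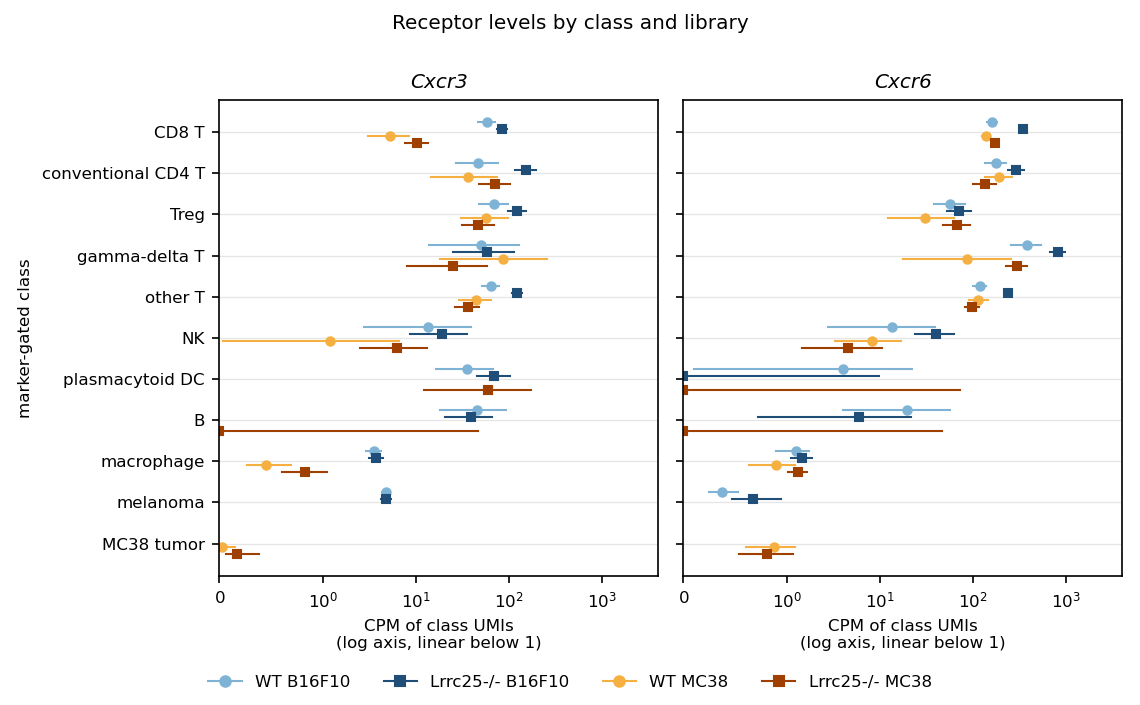
CPM of Cxcr3 and Cxcr6 (x axis, log scale, linear below 1) in marker-gated classes (y axis) of each library, with exact Poisson 95% intervals. CD8 T cells have 58.2 and 84.4 CPM of Cxcr3 in B16F10 and 5.21 and 10.2 CPM in MC38, while Treg have 69.2 and 122 CPM and 57.0 and 47.0 CPM.

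Within CD8 T cells the receptors differed between states. Checkpoint-positive cells had at least 2 UMIs of Pdcd1, Havcr2, Lag3 and Tigit, the inhibitory receptors of exhausted cells, and naive or memory-like cells at least 2 UMIs over a set of markers that includes Tcf7, Lef1 and Ccr7, each with none of the other set. Cxcr3 stood at 43.1, 146, 58.9 and 43.1 CPM in naive or memory-like cells (31, 100, 20 and 77 cells). It stood at 57.1, 31.3, 2.60 and 5.33 CPM in checkpoint-positive cells (8, 47, 271 and 332 cells). Cxcr6 went the other way, at 71.8, 247, 35.4 and 71.8 CPM in naive or memory-like and 247, 625, 153 and 201 CPM in checkpoint-positive cells. Over the 3 libraries with 20 cells of each state, checkpoint-positive cells had less Cxcr3 (-2.83 ± 0.44, adjusted p = 0.00297) and more Cxcr6 (1.52 ± 0.23, adjusted p = 0.00264), in a contrast where 7.27% of 5888 genes were called. Without the Lrrc25-/- MC38 library the Cxcr6 difference was 1.51 with an adjusted p of 0.0564.

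Checkpoint-positive cells were 8 of 204 CD8 T cells in the WT B16F10 library and 47 of 618 in the Lrrc25-/- one, against 271 of 610 and 332 of 906 in MC38, so the state makeup of CD8 T cells moved with the tumor model. Within naive or memory-like cells, with only 20 and 77 cells in MC38, Cxcr3 did not separate the models (43.1 and 146 CPM in B16F10, 58.9 and 43.1 CPM in MC38). In checkpoint-positive cells, with only 8 and 47 in B16F10, the Cxcr3 levels given above did separate them. In cells that were not cycling Cxcr3 also separated the models, at 81.4, 119, 7.28 and 11.2 CPM. The part of state makeup in the CD8 T difference was not tested. Cycling CD8 T cells, gated on Mki67, Top2a, Stmn1 and Birc5, had less Cxcr3 (-1.37 ± 0.21, adjusted p = 6.76e-05) and less Cxcr6 (-0.65 ± 0.13, adjusted p = 0.000773) than the other CD8 T cells in the same library, where 27.9% of genes were called. Both receptors were detected in 19.6%, 19.3%, 0.492% and 2.21% of CD8 T cells.

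**Figure D4:**
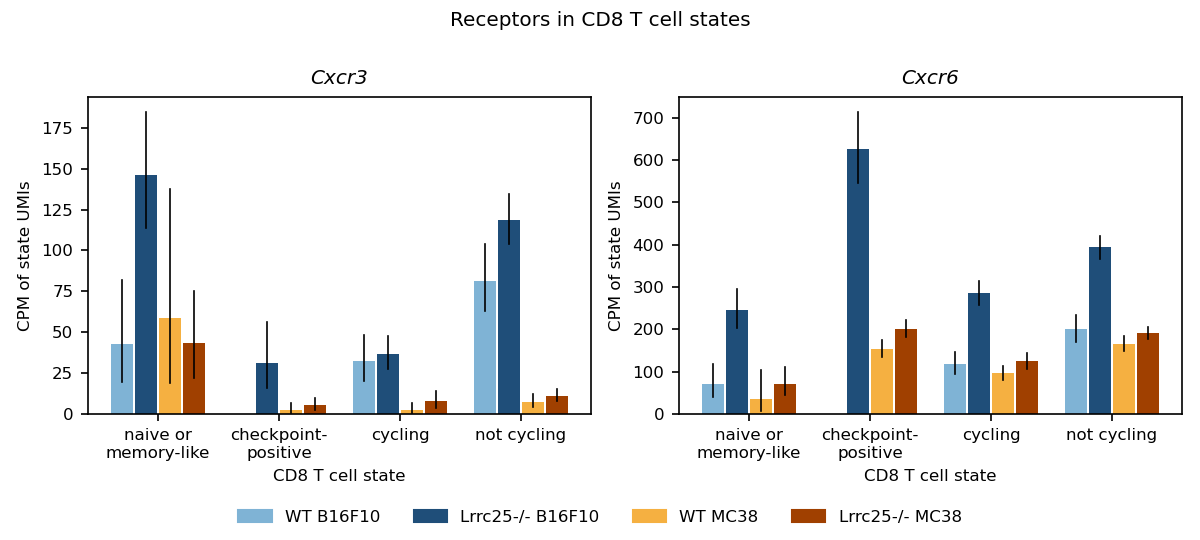
CPM of Cxcr3 and Cxcr6 (y axis, from 0) in CD8 T cell states (x axis), 1 bar per library with exact Poisson 95% intervals. The WT B16F10 library, with 8 checkpoint-positive cells, has no bar there. Cxcr3 is at 2.60 and 5.33 CPM in checkpoint-positive cells of MC38 and at 58.9 and 43.1 CPM in naive or memory-like cells of the same libraries.

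Between the tumor models, Cxcl9 was higher and Cxcl10 lower in MC38 macrophages and monocytes, and Cxcr3 was lower in each T cell class tested. Each test set the 2 MC38 pools against the 2 B16F10 pools with genotype as a second term (edgeR), and the models also differ in day of collection. In macrophages Cxcl9 was higher in MC38 (2.55 ± 0.23, adjusted p = 7.14e-06), by 7.21-fold within WT and 8.44-fold within Lrrc25-/-. Cxcl10 was lower (-2.30 ± 0.22, adjusted p = 1.01e-05), with the B16F10 level 3.64 and 3.78 times that of MC38. Cxcl16 did not pass (0.13 ± 0.21, adjusted p = 0.614). In macrophages 63.3% of 15103 genes were called between the models, so a call there is common.

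Monocytes had the same order, with Cxcl9 higher (2.13 ± 0.23, adjusted p = 1.98e-05), Cxcl10 lower (-1.61 ± 0.23, adjusted p = 0.000111) and Cxcl16 higher (0.87 ± 0.23, adjusted p = 0.00627), and 49.5% of genes called. Cxcl10 did not follow this order in every myeloid class: within Lrrc25-/- it was higher in MC38 in neutrophils (542 against 153 CPM) and in cDC2 (338 against 186 CPM). In fibroblasts, with 53.1% of genes called, Cxcl9 was higher (3.91 ± 0.31, adjusted p = 1.39e-07), by 35.7-fold within WT and 17.6-fold within Lrrc25-/-, and with cells named by highest marker score it was not (-0.14). In CD8 T cells, with 55.1% of genes called, Cxcr3 was lower (-3.67 ± 0.25, adjusted p = 2.62e-10): the B16F10 level was 11.2 times that of MC38 within WT and 8.26 times within Lrrc25-/-. Cxcr6 was lower too (-1.12 ± 0.24, adjusted p = 0.000385), with the B16F10 level 1.18 and 2.03 times that of MC38. Cxcr3 was also lower in Treg (-1.45 ± 0.34, adjusted p = 0.00144, 43.1% of genes called), conventional CD4 T cells (-1.36 ± 0.37, adjusted p = 0.0334, 27.0% of genes called) and other T cells (-1.73 ± 0.28, adjusted p = 1.77e-08, 52.4% of genes called). As CPM within WT, the B16F10 level in these classes was only 1.21, 1.29 and 1.46 times that of MC38. Within Lrrc25-/- it was 2.60, 2.14 and 3.39 times that of MC38. With DESeq2 the Treg call was lost (-1.43, adjusted p = 0.0612). Cxcr6 was lower in other T cells (-1.20 ± 0.27, adjusted p = 5.43e-05), and in Treg (-0.81, adjusted p = 0.0635) and conventional CD4 T cells (-1.07, adjusted p = 0.0604) it did not pass.

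The scaling moves these values. With class totals in place of TMM, the median gene shifted towards MC38 by 0.41 on the log2 scale in macrophages and 0.48 in CD8 T cells. The share of calls that were higher in MC38 went from 51.4% to 69.4% in macrophages and from 50.1% to 73.4% in CD8 T cells. On class totals the macrophage values were 2.96 for Cxcl9, -1.89 for Cxcl10 and 0.54 for Cxcl16, the last now past the test (adjusted p = 0.0331). Cxcr3 in CD8 T cells was -3.21 and Cxcr6 -0.64 (adjusted p = 0.0204), and Cxcr3 in conventional CD4 T cells lost its call (-0.83, adjusted p = 0.156). Xist, the X-inactivation RNA of female cells, stood at 0.0322, 0.0255, 651 and 656 CPM in macrophages and 0.661, 0, 831 and 854 CPM in CD8 T cells. Cxcr3 is X-linked, and the part of host sex or day in its difference between the models cannot be told apart from that of the tumor.

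The Cxcr3 difference between the models was greater in CD8 T cells than in Treg, by a class-by-model term added after the data were seen (-2.19 ± 0.41, adjusted p = 0.00277, 3.12% of 8891 genes called). By highest marker score it did not pass (-1.91, adjusted p = 0.0606), and DESeq2 gave -2.30 with no adjusted p. Against conventional CD4 T cells the term was -2.37 ± 0.47 and did not pass (adjusted p = 0.106, 0.0935% of genes called). It passed at about that size with no filter on low counts (-2.21, adjusted p = 0.0011), by highest marker score (-2.15, adjusted p = 8.87e-05) and with Scrublet removal (-2.47, adjusted p = 0.0198). Against NK cells it was -1.36 ± 0.73 (adjusted p = 0.519). For Cxcr6 none of the terms passed, at -0.46 (adjusted p = 0.613) against Treg, -0.12 (adjusted p = 0.984) against conventional CD4 T cells and 1.24 (adjusted p = 0.330) against NK cells.

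Genes of the pathway were read in macrophages from lists, as log2 differences of MC38 over B16F10, in a comparison that called 63.3% of all genes. Of 10 genes of the interferon gamma axis, 5 were higher in MC38 and 0 lower, with a list median of 0.46 against 0.05 over all genes tested, so the called share was under that of all genes. Among them were the transducers Jak2 (1.75), Stat2 (1.37) and Jak1 (0.80) and the receptor chain Ifngr1 (1.27). Of 14 interferon-induced genes, 8 were higher and 1 lower (median 0.86). They included the nitric oxide synthase Nos2 (4.60), the interferon-induced GTPases Iigp1 (2.72), Gbp2 (2.64) and Gbp5 (1.55), the MHC class II activator Ciita (2.25) and the PD-L1 gene Cd274 (1.59). Isg15, a ubiquitin-like product of type I interferon signalling, was the 1 called lower (-1.88). Rsad2 and Ifit3 of the same list were not called. In monocytes Isg15 was again lower and Rsad2 was higher. Of 4 genes of ligand processing and scavenging, 3 were higher (median 1.54): the atypical receptor Ackr3 (3.40), the chemokine-trimming peptidase Dpp4 (1.86) and the CXCL16 sheddase Adam10 (1.22). Of 3 T cell-attracting CC chemokines, Ccl4 (-4.40) and Ccl3 (-3.90) were lower and Ccl5 did not pass. Of 9 genes of chemokine receptor signalling (median -0.07), 2 were higher, Dock2 (1.32) and Arrb1 (0.56), and 3 lower, Rgs1 (-1.45), Rac2 (-1.07) and Arrb2 (-0.59).

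In CD8 T cells, where 55.1% of all genes were called, 5 of 15 regulators and companions of the receptors were higher in MC38 and 6 lower, with a list median of -0.20 against 0.01 over all genes tested. The higher ones were the transcription factors Tbx21 (1.85) and Runx3 (1.42), the integrin chain Itga1 (1.56) and the cytokine receptor chains Il12rb2 (1.97) and Il18r1 (1.29). Tbx21 encodes T-bet, which is known to drive Cxcr3, and its part in the Cxcr3 difference between the models was not tested. Lower were the egress receptor S1pr1 (-2.41) and its regulator Klf2 (-2.03), Ccr2 (-1.69), the integrin chain Itgae (-1.34), Id2 (-0.80) and Eomes (-0.78). The CC chemokines Ccl5 (-2.97), Ccl4 (-2.61) and Ccl3 (-2.55) were all lower. Of the interferon gamma axis, Irf8 (2.12) was higher and Ifngr2 (-1.46) and Irf1 (-0.63) lower, with a median of 0.30 over 10 genes. Of 14 interferon-induced genes, 3 were higher and 4 lower (median 0.09), among them Nos2 (3.04) and the cytokine signalling inhibitor Socs1 (-1.76). Ackr3, Dpp4 and Adam10 were higher, as in macrophages (3 of 4, median 1.23), and of 9 signalling genes 3 were higher and 4 lower (median -0.41).

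With the genotypes compared within each model, macrophage ligands stayed under the 1.5-fold size rule that stands in for a test of 1 pool against 1 pool. The rule also asks for 20 CPM in either library and 50 UMIs in all, and ratios are Lrrc25-/- over WT with 95% intervals for counting error only. In B16F10 macrophages the ratios were 1.13 (1.09 to 1.18) for Cxcl9, 1.08 (1.07 to 1.10) for Cxcl10 and 1.09 (1.06 to 1.12) for Cxcl16. In MC38 macrophages they were 1.33 (1.31 to 1.34), 1.04 (1.02 to 1.07) and 1.37 (1.34 to 1.39). Of genes with enough counts, 4.12% in B16F10 and 3.08% in MC38 macrophages passed the rule. The edgeR fit over both models gave 0.29 ± 0.21 for Cxcl9, 0.08 ± 0.21 for Cxcl10 and 0.28 ± 0.21 for Cxcl16, each with an adjusted p of 1.00, and it called 0.00662% of genes in macrophages. None of the pathway lists had a gene past that test in macrophages or in CD8 T cells, and DESeq2 values of list genes were not kept. At an unadjusted p under 0.05, 1 or 2 genes a list passed in macrophages and 0 to 5 in CD8 T cells, the most among regulators and companions of the receptors (5 of 15). The share of all genes at that threshold is not given, so these counts are descriptions and no result about a list.

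By Arg1 state the B16F10 pools differed more: Cxcl9 was lower in Lrrc25-/- Arg1+ macrophages (ratio 0.469, 0.433 to 0.509) and higher in Arg1-negative ones (1.61, 1.54 to 1.68), where 4.82% and 3.47% of genes passed. In MC38 these ratios were 1.41 and 0.981. Monocytes passed the rule for Cxcl10 in B16F10 (0.663, 0.593 to 0.741, with 18.8% of genes past it) and for Cxcl16 in MC38 (1.51, 1.34 to 1.71, with 13.1%). By highest marker score the former ratio was 1.19. In MC38 tumor cells, where 1.39% of genes passed, Cxcl10 was at 1.52 (1.48 to 1.56) and Cxcl9 at 1.76 (1.62 to 1.90), while Cxcl10 in melanoma cells was at 1.02 (0.996 to 1.04). In MC38 cDC2 the ratios were 6.44 (4.18 to 10.4) for Cxcl9 and 3.28 for Cxcl10, from 32 and 35 cells and with 20.1% of genes past the rule, and in migratory DC Cxcl9 was at 3.03 (2.09 to 4.50), with 17.5% past it.

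CD8 T cells in B16F10 had 2.16 times as much Cxcr6 in Lrrc25-/- as in WT (1.88 to 2.49), past the rule, which 18.2% of genes passed there. Cxcr3 was at 1.45 (1.14 to 1.86), under it. In MC38, with 8.13% of genes past the rule, Cxcr6 was at 1.25 (1.11 to 1.40), and Cxcr3 was at 1.96 (1.11 to 3.63) on too few counts to call. The B16F10 ratio of Cxcr6 was above the rule in each state, at 3.44 (2.0 to 6.33) in naive or memory-like, 2.53 (1.45 to 4.83) in checkpoint-positive, 2.42 (1.91 to 3.10) in cycling and 1.96 (1.66 to 2.34) in other cells. Of genes with enough counts, 32.9%, 28.7%, 19.3% and 23.9% passed the rule in these states. The WT B16F10 CD8 T cells were deeper than the Lrrc25-/- ones (median 4804.5 against 3084.5 UMIs a cell), and the part of that in the ratio was not tested. The T cell genes Cd3e, Cd8a and Cd8b1 were also higher in these Lrrc25-/- cells, at 409, 436 and 543 CPM against 274, 272 and 346 in WT. In MC38 they stood at 436, 556 and 548 CPM against 443, 523 and 540. The part of a general difference in T cell RNA in the receptor ratios was not tested. Over both models the fit gave 0.67 ± 0.23 for Cxcr6 (adjusted p = 0.637, edgeR) and 0.60 ± 0.24 for Cxcr3 (adjusted p = 0.772, edgeR), with 0.0566% of genes called.

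Other T cell classes in B16F10 also had more receptor RNA in Lrrc25-/-. Cd3e was higher there too, at 370 against 235 CPM in other T cells and 297 against 242 CPM in Treg. Its part in the receptor ratios was not tested. Conventional CD4 T cells had ratios of 3.26 (1.84 to 6.08) for Cxcr3 and 1.68 (1.21 to 2.34) for Cxcr6, where 32.2% of genes passed the rule. Treg had 1.77 (1.17 to 2.72) for Cxcr3 and 1.25 for Cxcr6, where 20.9% passed. Other T cells had 1.90 for Cxcr3 and 2.03 for Cxcr6, where 23.1% passed, and gamma-delta T cells had 2.16 for Cxcr6, where 33.9% passed. In MC38 the directions were mixed. Conventional CD4 T cells, where 23.5% of genes passed, had ratios of 0.702 (0.453 to 1.10) for Cxcr6 and 1.96 (0.837 to 5.32) for Cxcr3, the latter on 7 and 28 UMIs. Treg, where 16.2% passed, had 0.824 (0.411 to 1.74) for Cxcr3 and 2.21 (0.978 to 5.86) for Cxcr6, both on too few counts to call. Other T cells were at 0.820 for Cxcr3 and 0.863 for Cxcr6, where 14.3% passed. Gamma-delta T cells had 3.44 (1.12 to 17.1) for Cxcr6, past the rule on 3 and 60 UMIs, where 34.4% passed.

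Over 13 classes and 47 pairs of member and class, the genotype fits called 1 pair, Cxcl9 in other T cells (1.48 ± 0.34, adjusted p = 0.00504), against 0.454% of genes there. At an unadjusted p under 0.05, 9 pairs passed, a count with no share of all genes beside it, and DESeq2 called 0. Other T cells held 14, 28, 20 and 163 Cxcl9 UMIs, of which 1 cell had 31.3% to 53.6%, and their C1qa level was 66.8, 72.8, 72.3 and 113 CPM. In the same library conventional CD4 T cells held 188 Cxcl9 UMIs (476 CPM), against 0 in WT MC38. Their C1qa level was 93.7 against 46.5 CPM, and the part of macrophage RNA in these values was not tested. The model fits over the same 47 pairs called 11 higher and 18 lower in MC38, 32 at an unadjusted p under 0.05 and 18 with DESeq2. By the adjusted p, 27.0% to 63.3% of all genes were called in the classes given above. For the unadjusted count no such share is given.

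**Figure D5:**
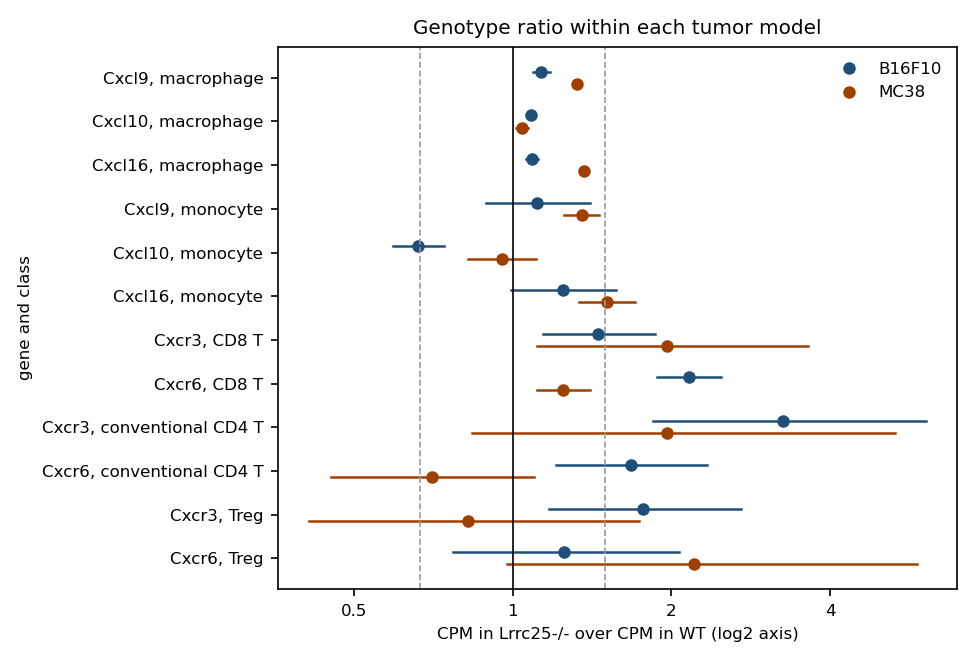
Ratio of CPM in Lrrc25-/- over WT (x axis, log2 scale) for ligands in macrophages and monocytes and receptors in T cells (y axis), in B16F10 and MC38, with 95% counting intervals. Dashed lines mark the 1.5-fold rule in either direction. Macrophage ligands lie between 1.04 and 1.37, and Cxcr6 in CD8 T cells lies at 2.16 in B16F10 and 1.25 in MC38.

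Over 43 sums of class and library, the genes whose log levels went most like each member were, by Pearson's r, Dapk1 (0.84), Tmem119 (0.81) and Hgf (0.80) for Cxcl9 and Hacd4 (0.77), Lamtor3 (0.75) and Atf3 (0.73) for Cxcl10. For Cxcl16 they were Tbc1d9 (0.83), Aif1 (0.81) and Nuak2 (0.80), of which Aif1 is a macrophage gene. For Cxcr3 they were Lat (0.88), Sit1 (0.87) and Gimap1 (0.86), and for Cxcr6 Trac (0.94), Lat (0.93) and Trbc2 (0.93), T cell receptor and adaptor genes. Between members r was 0.77 for Cxcr3 and Cxcr6, 0.73 for Cxcl9 and Cxcl16, and 0.22 for Cxcl9 and Cxcl10. The sums share libraries and depth, and these values are descriptions.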

How the data were processed

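Single-cell 3′ libraries (SeekOne Digital Droplet) of 4 tumor pools were analysed. The values are raw UMI counts per gene and barcode that the authors deposited; the build is mm10, per the submitters' processing notes, while no source used here names the aligner, counter or cell calling. Cells with at least 300 genes, 500 UMIs and at most 20% mitochondrial UMIs were kept. Classes were gated on marker UMIs, cells past gates of more than 1 lineage were left out (2.74% to 6.80%), and that was the treatment of doublets, with Scrublet as an alternative. UMIs were summed per library and class (at least 50 cells; 20 where fewer than 2 libraries reached that, chosen after seeing the data) and tested with edgeR 4.0.16 (quasi-likelihood, TMM, Benjamini-Hochberg, threshold 0.05) in R 4.3.3; DESeq2 1.42.0 was an alternative. Genotype and model terms came from the same fits, which had 1 residual degree of freedom, as did class contrasts over 2 libraries. Pools are not known to be independent repeats, so p-values measure only the spread between these pools. Within 1 model there was no test. Counts come with exact Poisson or Clopper-Pearson intervals (95%) that cover counting error only. Python 3.11.15, scanpy 1.11.5, scipy 1.17.1 and matplotlib 3.10.9 were used. Other genes were named from lists where they passed the test, up to 6 a comparison, and by likeness the 3 with the highest r. A gene of the interferon list and a gene of the naive or memory-like marker set, which counted in the list and in the gate, are not reported here. The members and lists were chosen with earlier results of these data known. The alternatives (DESeq2, no low-count filter, class totals, stricter gates, naming by highest marker score, Scrublet, a 10% mitochondrial limit, leaving out each library, thinning to 2000 UMIs) were computed for the named results. The scripts were tested on simulated data. Of simulated 2-fold changes in CD8 T cells, 33.7% (model) and 35.1% (genotype) were called, and in macrophages 60.2% and 62.9%. Of 4-fold changes in CD8 T cells, 87.6% and 89.7% were called. Unaltered genes made up 25 of 140 model calls in CD8 T cells and 33 of 180 in macrophages. For genotype they made up 4 of 125 and 11 of 159 calls.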

Additional observations from a re-analysis of the deposited data

Results flagged for a closer look

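The class-by-model term for Cxcr3 in CD8 T cells against Treg was -2.19 on the log2 scale (adjusted p = 0.00277, edgeR). The term was added after the data were seen, it did not pass by highest marker score (-1.91, adjusted p = 0.0606), and DESeq2 gave no adjusted p for it. Of the pairs of gene and class whose Lrrc25-/- over WT ratio went in opposite directions in B16F10 and MC38, 8 are given here. Other pairs with opposite directions include Cxcr6 in conventional CD4 T cells and Cxcr3 in Treg, whose ratios are given above. These differences were not tested, since each ratio rests on 1 pool per genotype and model. In CD8 T cells the ratios were 0.638 and 2.01 for Cxcl9 and 0.459 and 1.32 for Cxcl10. The C1qa level of these cells was 71.4, 54.1, 42.0 and 79.9 CPM. What part macrophage RNA had in the ligand ratios of T cells was not tested. In other T cells Cxcl10 was at 0.805 and 2.78. In cDC2 the ratios were 0.530 and 6.44 for Cxcl9 and 0.373 and 3.28 for Cxcl10. Endothelial cells had 3.37 and 0.618 for Cxcl9. Cxcl10 was at 0.569 and 2.93 in neutrophils and at 0.697 and 1.62 in fibroblasts.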

How the results depend on the processing

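No paired analysis was possible because each group is 1 pool and the shared replicate number does not link mice across groups. Of the fitted values under an alternative, 533 kept their side of the threshold and direction, 24 lost the call, 23 gained it and 16 turned sign; the cause was not tested. Assigning cells by their highest marker score in place of the gates turned Cxcl10 (0.0151) and Cxcl9 (0.13) in cDC2 against macrophages, Cxcl10 (-0.0566) and Cxcl16 (-0.13) in migratory DC against cDC1, Cxcl16 in migratory DC against macrophages (-0.50), the Cxcl9 genotype difference in other T cells (-0.50), the Cxcl9 model difference in fibroblasts (-0.14) and the Cxcl10 genotype ratio of B16F10 monocytes (1.19). It also took the call from Cxcr3 in CD8 T against NK cells (0.52, adjusted p = 0.212) and from the Cxcr3 class-by-model term against Treg (-1.91, adjusted p = 0.0606). Cxcl9 in cDC1 against macrophages was above 0 with DESeq2 (0.13), class totals without TMM (0.0829), Scrublet removal (0.17), without the WT MC38 (0.18) or Lrrc25-/- MC38 library (0.41) and by highest marker score (1.01, adjusted p = 0.00397), and with 1 library left out it ranged from -0.66 to 0.41. Cxcl9 in monocytes against macrophages was 0.11 under a stricter gate, which also brought Cxcr3 in CD8 T against Treg past the test (-1.32, adjusted p = 0.00687). Cxcl16 in macrophages between models was 0.54 with class totals. Cxcr6 in checkpoint-positive against naive or memory-like CD8 T cells ranged from 1.41 to 1.64 with 1 library left out. The Cxcr6 class-by-model term against conventional CD4 T cells was 0.0496 with no filter on low counts and 0.0061 at a mitochondrial limit of 10%. The Cxcl9 ratio of MC38 macrophages was 1.28 as a mean of per-cell CPM and 1.38 with TMM scaling. The Cxcl9 genotype call in other T cells was lost under DESeq2 (1.30, adjusted p = 1.00), the stricter gate (1.04, adjusted p = 0.106) and Scrublet removal (1.18, adjusted p = 0.248). A 2-fold rule in place of 1.5-fold took the genes past it from 922 to 213 (B16F10) and 507 to 93 (MC38) in CD8 T cells, and from 193 to 39 and 178 to 37 in macrophages. Genotype calls over all genes numbered 1 in macrophages, or 94 with no filter on low counts, and 6 in CD8 T cells, or 0 with Scrublet removal and 66 with no filter. In other T cells they numbered 40, or 1 with DESeq2. DESeq2 called fewer genes between models in CD8 T cells (3098, against 5835), Treg (911, against 2692), conventional CD4 T cells (450, against 1347), other T cells (2213, against 4618), monocytes (2223, against 4222) and fibroblasts (1573, against 3308). It also called fewer in CD8 T cells against Treg (430, against 689) and conventional CD4 T cells (155, against 652), and in Treg against conventional CD4 T cells (84, against 467). Without the Lrrc25-/- MC38 library the calls went from 428 to 71 between checkpoint-positive and naive or memory-like cells, from 2645 to 1612 for cycling cells and from 1098 to 569 for CD8 T against NK cells. Without the Lrrc25-/- B16F10 library they went from 3343 to 1932 in cDC2, from 4626 to 2944 in fibroblasts and from 4392 to 2365 in neutrophils, against macrophages, and without the WT B16F10 library from 1069 to 561 for Arg1. The stricter gate took cDC1 against macrophages from 2962 to 1505, and highest marker score took migratory DC from 2077 to 4451 against macrophages and from 1973 to 3052 against cDC1.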
